A study of Mus musculus with 3 samples.

Results

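The cytosolic ribosomal protein genes encode the proteins of the large (Rpl, Rplp) and small (Rps, Rpsa) subunits of the ribosome that translates nuclear-encoded mRNAs. Members were taken by symbol. A gene counted if its name was Rpl or Rps with a number, alone or followed by a, al, l, l1 or x, or was Rplp0, Rplp1, Rplp2 or Rpsa, and if it reached 1 FPKM in any library. FPKM is fragments per kilobase of transcript and per M mapped fragments, so levels of different genes are compared per length. Of 83 genes that matched by name, 77 were members, 47 of the large and 30 of the small subunit, among 23356 gene symbols in the tables. Rpl3 and Rpl23a were among those with no estimate in any library and stayed outside. The paralogs Rpl3l, Rpl10l and Rpl39l stayed below 1 FPKM, the highest of their values being 0.687 FPKM for Rpl3l in Ercc1 AL. Just inside the limit was Rpl30, whose highest value was 2.24 FPKM in Ercc1 AL. The rule uses no measured difference between libraries, but members were chosen with earlier results of these data known.

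The data are 3 liver libraries of mice aged 16 weeks on a C57BL6J and FVB background, made from total RNA after removal of ribosomal RNA. Ercc1 DR came from Ercc1 delta/- mice under diet restriction, Ercc1 AL from Ercc1 delta/- mice fed ad libitum, and wt AL from wild-type mice fed ad libitum. ERCC1 is the partner of the XPF nuclease in nucleotide excision repair and crosslink repair. An Ercc1 delta/- mouse carries 1 null and 1 truncated allele and shows early ageing. Each group is 1 library, and the labels do not say how many animals or which sex it holds. No wild-type library under diet restriction was analysed here. No difference below therefore has a test or a replicate check. The labels do not give the time of day or the hours since feeding at which the livers were taken.

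A ribosome holds a single copy of most of its proteins, and the genes are spread over the genome, with members on 19 mouse chromosomes and 14 members on chromosome 7. Most of their mRNAs begin with a 5′ terminal oligopyrimidine (TOP) tract, a run of C and U directly at the transcription start. The kinase complex mTORC1, acting through 4E-binding proteins and LARP1, sets how well such mRNAs are translated and, through LARP1, how stable they are. In liver, feeding and fasting are known to change the translation of TOP mRNAs.

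The start-site sequences are shown because this tract is the feature by which the genes are best known to respond to nutrients. RefSeq promoter sequences (GRCm38.p6) were matched for 60 of the 77 members. Each line gives 25 bases before and 25 bases from the annotated start on the coding strand, 5′ to 3′, with the longest run of C and T in capitals. The 8 genes include members that were high or low in the comparisons below, the target of S6 kinase (Rps6), and Rpl7a, which had the longest run.
Rpl22l1 (chr3:28805483-28805532, plus strand): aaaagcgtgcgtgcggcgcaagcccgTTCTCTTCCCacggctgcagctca
Rps24 (chr14:24490653-24490702, plus strand): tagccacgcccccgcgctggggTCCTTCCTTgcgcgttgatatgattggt
Rps27 (chr3:90213624-90213673, minus strand): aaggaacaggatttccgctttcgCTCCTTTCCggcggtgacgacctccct
Rps6 (chr4:86857343-86857392, minus strand): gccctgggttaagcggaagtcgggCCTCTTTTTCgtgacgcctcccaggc
Rpl38 (chr11:114668555-114668604, plus strand): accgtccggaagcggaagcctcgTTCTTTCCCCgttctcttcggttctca
Rpl7a (chr2:26910782-26910831, plus strand): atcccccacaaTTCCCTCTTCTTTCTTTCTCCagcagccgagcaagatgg
Rpl39 (chrX:37085198-37085247, minus strand): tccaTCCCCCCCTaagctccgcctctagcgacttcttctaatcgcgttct
Rps2 (chr17:24720038-24720087, plus strand): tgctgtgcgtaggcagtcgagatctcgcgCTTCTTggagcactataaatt
A run of at least 8 pyrimidines (C or T, on the coding strand) lay within this window in 32 of 60 members (53.3%), against 22.3% of all 27025 genes in the promoter table. The longest run had a median of 9 bases in members and 5 in all genes. Rpl7a had 21 pyrimidines in a row, and Rps2 had 6. In the 300 bases from 250 before to 50 after the start, the core letters CCGGAA, bound by ETS factors, were present on either strand in 33 of 60 members (55.0%) and in 16.7% of all genes. AAGATGGC, the core of the YY1 motif, was present in 6 of 60 members (10%) and in 3.19% of all genes. These are matches of letters only.

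Nearly every member had its lowest FPKM in wt AL and its highest in Ercc1 DR. The median member stood at 83.7 FPKM in Ercc1 DR (2.10 to 426, n = 77), at 57.0 FPKM in Ercc1 AL (2.06 to 576, n = 76), and at 29.4 FPKM in wt AL (1.25 to 402, n = 77). Summed over members, the levels came to 8036 FPKM in Ercc1 DR, 5186 in Ercc1 AL and 3319 in wt AL. Of 76 members with an estimate in every library, 71 (93.4%) followed the order wt AL, Ercc1 AL, Ercc1 DR from low to high, against 59.3% of 9053 genes. The exceptions were Rpl30, Rpl35a and Rps27, highest in Ercc1 AL, Rpl38, which ran the opposite way, and Rps2, lowest in Ercc1 DR and highest in Ercc1 AL.

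**Figure D1:**
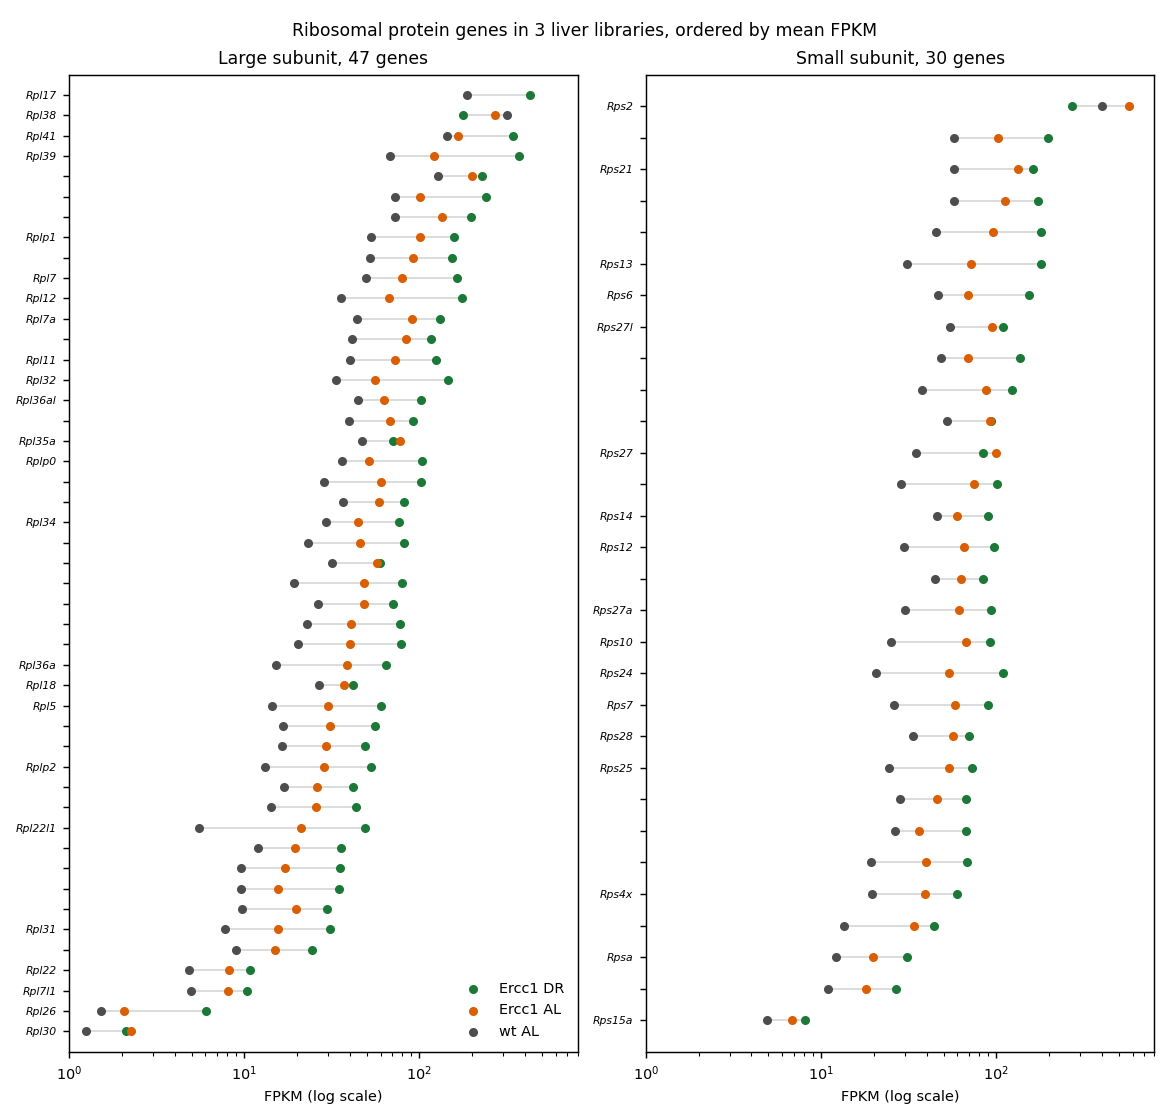
FPKM of each member (rows, ordered by mean FPKM) in the 3 libraries, with the large subunit at left and the small subunit at right; the horizontal axis is logarithmic, each point is 1 library, and Rpl17 has no Ercc1 AL point; the genes described in the text are labelled. In most rows the wt AL point is leftmost and the Ercc1 DR point rightmost, while Rpl38 and Rps2, among the most abundant members, have their Ercc1 DR point at the left.

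Part of that order belongs to the libraries as a whole. Over 9109 rows with at least 1 FPKM in every library, the typical gene was 1.41-fold higher in Ercc1 AL than in wt AL, 1.26-fold higher in Ercc1 DR than in Ercc1 AL, and 1.72-fold higher in Ercc1 DR than in wt AL. In the comparisons below the libraries were first rescaled to remove this shift (0.49, 0.33 and 0.78 on the log2 scale). A rescaled ratio is the log2 ratio of FPKM + 1 after that step, a scale that understates differences of low genes. It says where a gene stands relative to the typical liver gene, and 2-fold means a rescaled ratio of at least 1 or at most -1. Where 3 ratios are given together, they are those of Ercc1 AL against wt AL, of Ercc1 DR against Ercc1 AL and of Ercc1 DR against wt AL, in this order. After rescaling, 58 of 76 members (76.3%) still followed the order wt AL, Ercc1 AL, Ercc1 DR, against 29.0% of genes.

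Ercc1 AL against wt AL asks what the mutation goes with under free feeding. Members stood somewhat above the typical gene, by a small and rather even amount. The median rescaled ratio was 0.33 (middle 50% 0.19 to 0.54) over 76 members, against 0.01 over 12359 measured genes, and 67 members were above 0, against 50.9% of genes. Only Rpl22l1 and Rps27 were at least 2-fold higher, 2 of 76 where the background was 2.35% of genes, and no member was 2-fold lower, against 4.9% of genes. The count of 2-fold members is near the background. On the values as deposited, 22 members were at least 2-fold higher, against 5.8% of genes, and 0 were 2-fold lower, against 2.2%.

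The 3 highest ratios in Ercc1 AL against wt AL were those of Rpl22l1, Rps27 and Rps10. Rpl22l1, a paralog of the large-subunit gene Rpl22, had 20.98 FPKM in Ercc1 AL and 5.499 FPKM in wt AL, a rescaled log2 ratio of 1.31. Rps27, a zinc-finger protein of the small subunit, had a rescaled log2 ratio of 1.01. Rps10, which the ligase ZNF598 marks with ubiquitin on collided ribosomes, had a ratio of 0.91. The 3 lowest were Rpl38 at -0.71, Rpl41 at -0.29 and Rps14 at -0.10. Of these, only Rpl38 was also lower as deposited, with 271 FPKM in Ercc1 AL and 315 FPKM in wt AL. Rpl41, a very short peptide, had 165 FPKM in Ercc1 AL and 143 FPKM in wt AL.

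Ercc1 DR against Ercc1 AL asks what diet restriction goes with in the mutant. The median rescaled ratio was 0.32 (middle 50% 0.11 to 0.60) over 76 members, against -0.06 over 12361 measured genes, and 63 members were above 0, against 44.8% of genes. Rpl39, Rpl32 and Rpl12 were at least 2-fold higher, 3 of 76 where the background was 3.12% of genes. Rps2 was 2-fold lower, 1 of 76 where the background was 12% of genes. As deposited, 12 members were 2-fold higher, against 6.5% of genes, and 1 was 2-fold lower, against 8.71%.

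Rpl39, a small protein that lines the exit tunnel for the growing chain, stood at 373 FPKM in Ercc1 DR, against 121 FPKM in Ercc1 AL, a rescaled log2 ratio of 1.28. Rpl32 stood at 147 FPKM in Ercc1 DR, against 55.6 FPKM in Ercc1 AL, a ratio of 1.05, and Rpl12, at the base of the stalk that recruits translation factors, had 174 FPKM in Ercc1 DR, 67.3 FPKM in Ercc1 AL and a ratio of 1.03. Rps13 followed at 0.98, with 180.0 FPKM in Ercc1 DR against 72.0 FPKM in Ercc1 AL. All 4 contain a snoRNA gene in the GENCODE annotation, described further on. At the low end were Rps2 at -1.42, Rpl38 at -0.95, Rps27 at -0.58 and Rpl35a at -0.45. Rpl35a had 70.9 FPKM in Ercc1 DR against 77.1 FPKM in Ercc1 AL.

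Ercc1 DR against wt AL changes genotype and diet together, so the part of each cannot be told apart. Here the members stood furthest above the typical gene. The median rescaled ratio was 0.78 (middle 50% 0.46 to 0.999) over 77 members, against -0.03 over 12127 measured genes, and 71 members were above 0, against 48% of genes. At least 2-fold higher were 19 of 77 members (24.7%), against 6.02% of genes, and 2 were 2-fold lower, against 16.4% of genes. As deposited, 64 members were at least 2-fold higher, against 24% of genes, and none was 2-fold lower, against 8.63%.

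Rpl22l1 was highest with a rescaled log2 ratio of 2.22, from 48.9 FPKM in Ercc1 DR and 5.499 FPKM in wt AL. Rps13, with 180.0 FPKM in Ercc1 DR and 30.8 FPKM in wt AL, had a ratio of 1.74, and Rpl39, with 373 FPKM in Ercc1 DR and 68.2 FPKM in wt AL, had 1.66. Rps24, a gene mutated in human Diamond-Blackfan anaemia, had 109 FPKM in Ercc1 DR, 20.5 FPKM in wt AL and a ratio of 1.59. The lowest ratios were -1.61 for Rpl38, -1.35 for Rps2, -0.18 for Rpl35a and -0.13 for Rpl18. Rpl18 had 41.9 FPKM in Ercc1 DR and 26.8 FPKM in wt AL. Only Rpl38 and Rps2 were thus far from the rest at the low end.

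**Figure D2:**
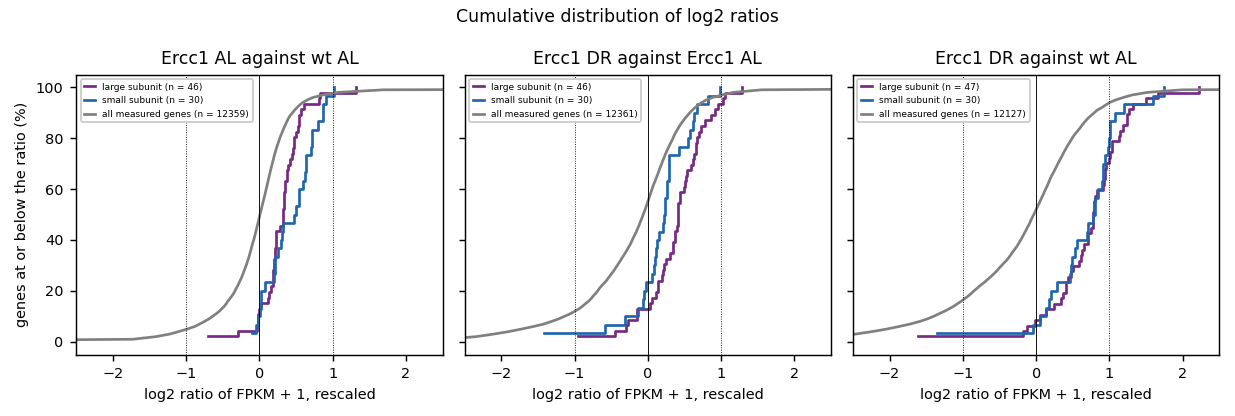
Share of genes (vertical axis, percent) at or below each rescaled log2 ratio of FPKM + 1 (horizontal axis) for the large subunit, the small subunit and all measured genes, 1 panel per comparison, with dotted lines at 2-fold. Both subunit curves lie right of the curve of all genes along most of their length, and in Ercc1 DR against wt AL the 2 subunit curves run together, with medians of 0.78 (large) and 0.79 (small).

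The subunits differed in opposite directions in the first 2 comparisons and hardly at all in the third. In Ercc1 AL against wt AL the median rescaled ratio was 0.32 for the large subunit (46 genes, 40 above 0) and 0.48 for the small subunit (30 genes, 27 above 0), a difference of -0.16. In Ercc1 DR against Ercc1 AL it was 0.41 for the large subunit (40 of 46 above 0) and 0.23 for the small subunit (23 of 30 above 0), a difference of 0.18. It was 0.78 in Ercc1 DR against wt AL for the large subunit (43 of 47 above 0) and 0.79 for the small subunit (28 of 30 above 0), a difference of -0.01. The first 2 comparisons share the Ercc1 AL library, which stands on top in one and below in the other. The first 2 differences kept their sign in each alternative processing tried, between -0.28 and -0.15 and between 0.18 and 0.22, and the third stayed between -0.05 and -0.01. With 1 library per group these differences of medians have no error estimate.

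The median level per length was higher for the small subunit in each library. The median large-subunit gene had 77.4 FPKM in Ercc1 DR, 46.9 FPKM in Ercc1 AL and 26.8 FPKM in wt AL. The median small-subunit gene had 92.7 FPKM in Ercc1 DR, 64.3 FPKM in Ercc1 AL and 30.4 FPKM in wt AL. In Ercc1 DR against wt AL, 13 of 47 large-subunit genes (27.7%) were at least 2-fold higher and 1 was 2-fold lower, and 6 of 30 small-subunit genes (20%) were higher and 1 was lower, against 6.02% of genes higher and 16.4% lower. In Ercc1 DR against Ercc1 AL, 3 of 46 large-subunit genes were 2-fold higher, against 3.12% of genes, and 1 of 30 small-subunit genes was 2-fold lower, against 12% of genes.

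The small-subunit genes whose proteins bacteria lack had the highest class median in the first comparison and the lowest in the second. Ribosomal proteins shared by bacteria, archaea and eukaryotes are called universal, and the others were added in archaea and eukaryotes. Without paralogs, 14 small-subunit members were not universal, and in Ercc1 AL against wt AL all 14 were above 0 with a median rescaled ratio of 0.64. The 15 universal small-subunit members had a median of 0.21, with 12 above 0, and the large-subunit medians were 0.33 (universal, 15 genes) and 0.32 (not universal, 28 genes). In Ercc1 DR against Ercc1 AL the same 14 genes had the lowest median of these classes, 0.14, against 0.29 for universal small, 0.44 for universal large and 0.41 for other large members. The medians in Ercc1 DR against wt AL were 0.88 for these 14 genes, 0.55 for universal small, 0.80 for universal large and 0.78 for other large members.

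Those 14 genes were also the most even in level. They ran from 59.4 to 161 FPKM in Ercc1 DR, from 39.1 to 133 FPKM in Ercc1 AL and from 19.5 to 57.0 FPKM in wt AL. Their coefficient of variation was 29.2% in Ercc1 DR, 33.3% in Ercc1 AL and 34.6% in wt AL, against 77.4% in Ercc1 DR, 109% in Ercc1 AL and 140% in wt AL over all members. In each library Rps21 was the highest of the 14 and Rps4x the lowest, and Rps21 stood at 2.71 times Rps4x in Ercc1 DR, 3.399 times in Ercc1 AL and 2.93 times in wt AL. Rps4x had 59.4 FPKM in Ercc1 DR, 39.1 in Ercc1 AL and 19.5 in wt AL, and Rps21 had 161 FPKM in Ercc1 DR, 133 in Ercc1 AL and 57.0 in wt AL. Other members of this class were Rps7, at 89.8 FPKM in Ercc1 DR, 58.1 in Ercc1 AL and 26.2 in wt AL, Rps12, at 96.7 FPKM in Ercc1 DR, 65.7 in Ercc1 AL and 29.6 in wt AL, and Rps25, which viral internal ribosome entry sites need, at 72.7 FPKM in Ercc1 DR, 53.5 in Ercc1 AL and 24.4 in wt AL. In Ercc1 AL against wt AL, Rps6 at 0.08 and Rps28 at 0.25 stood nearest to the typical gene among the 14. Rps28 had 70.3 FPKM in Ercc1 DR, 56.6 FPKM in Ercc1 AL and 33.6 FPKM in wt AL.

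**Figure D3:**
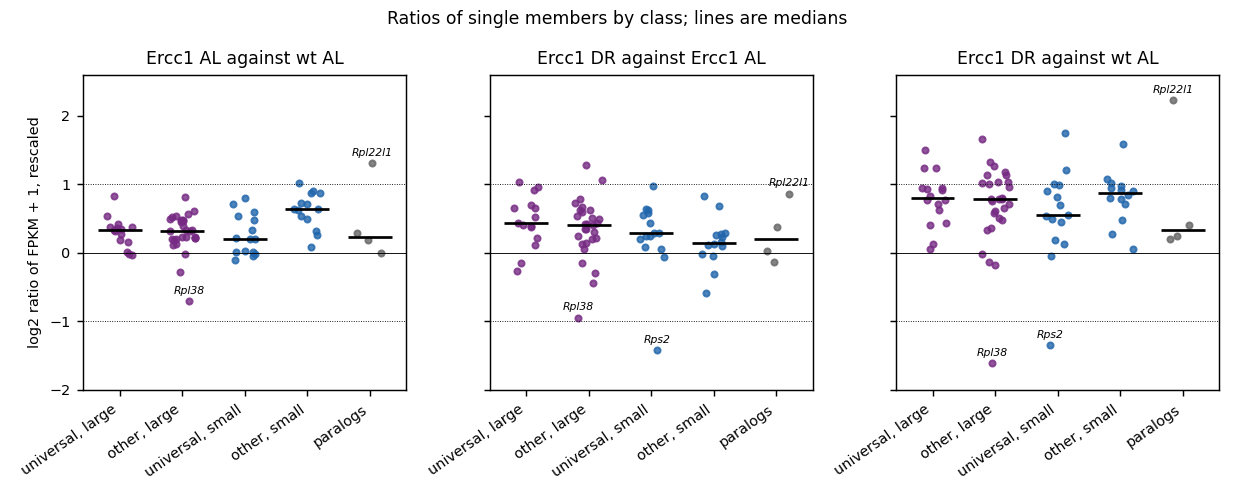
Rescaled log2 ratio of FPKM + 1 (vertical axis) of each member by class, 1 panel per comparison, points being genes (horizontal scatter is arbitrary), lines class medians and dotted lines 2-fold. The non-universal small-subunit genes have the highest class median in Ercc1 AL against wt AL (0.64) and the lowest of the 4 subunit classes in Ercc1 DR against Ercc1 AL (0.14). Both of these comparisons use the Ercc1 AL library. Rps2 and Rpl38 lie apart at the bottom and Rpl22l1 at the top.

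Rps2 and Rpl38 were the clear exceptions among the members, and both were among the 5 most abundant members, with Rpl17, Rpl41 and Rpl39. Rps2, a universal protein at the channel where mRNA enters the small subunit, had 271 FPKM in Ercc1 DR, 576 FPKM in Ercc1 AL and 402 FPKM in wt AL. Its rescaled ratio was 0.03 in Ercc1 AL against wt AL, like most genes, and -1.42 in Ercc1 DR against Ercc1 AL. The Rps2 gene (chr17:24720063-24721927, plus strand, mm10) contains the snoRNA gene Snora64, whose row was listed at 3299 FPKM in Ercc1 DR, 4865 FPKM in Ercc1 AL and 5687 FPKM in wt AL. Its rescaled ratios were -0.72, -0.89 and -1.57 beside 0.03, -1.42 and -1.35 for Rps2, so both rows were below the typical gene in the 2 comparisons with Ercc1 DR. Whether snoRNA fragments entered the Rps2 row was not tested. Rps2 also has 11 pseudogenes named after it in GENCODE, and reads it may share with them make its level uncertain.

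Rpl38, whose loss in the mouse alters the pattern of the axial skeleton, had 176 FPKM in Ercc1 DR, 271 FPKM in Ercc1 AL and 315 FPKM in wt AL. Its rescaled ratios were -0.71, -0.95 and -1.61 in Ercc1 AL against wt AL, Ercc1 DR against Ercc1 AL, and Ercc1 DR against wt AL. Its deposited intervals did not overlap, being 167 to 186 FPKM in Ercc1 DR, 262 to 283 FPKM in Ercc1 AL and 303 to 329 FPKM in wt AL. These intervals cover counting in 1 library, not animals. No snoRNA gene lies in Rpl38 (chr11:114668543-114672331, plus strand). Its span falls inside the longer span of a row named Mir466n, listed at 0 FPKM in Ercc1 DR, 17.6 FPKM in Ercc1 AL and 22.1 FPKM in wt AL. By deposited FPKM, the highest members in Ercc1 DR were Rpl17 at 426 FPKM, Rpl39 at 373 FPKM and Rpl41 at 343 FPKM, whereas in wt AL they were Rps2 at 402 FPKM, Rpl38 at 315 FPKM and Rpl17 at 187 FPKM. Rpl17 had no estimate in Ercc1 AL.

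Among the paralogs, Rpl22l1 took a different share of its pair in each library. In the mouse the Rpl22 protein is known to repress Rpl22l1, and the 2 proteins can replace each other in the ribosome. Rpl22 had 10.8 FPKM in Ercc1 DR, 8.17 FPKM in Ercc1 AL and 4.82 FPKM in wt AL, and rescaled ratios of 0.23, 0.06 and 0.33 in the 3 comparisons. Rpl22l1 made up 81.9% of the 2 genes' summed FPKM in Ercc1 DR, 72.0% in Ercc1 AL and 53.3% in wt AL. On the midpoints of the deposited intervals the share was lower, 74.6% in Ercc1 DR, 62.7% in Ercc1 AL and 44.0% in wt AL, so in wt AL the order within the pair turned round. The deposited FPKM of Rpl22l1 lay above its own intervals, which were 27.1 to 31.5 FPKM in Ercc1 DR, 11.4 to 14.0 FPKM in Ercc1 AL and 2.74 to 4.40 FPKM in wt AL, and these did not overlap.

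The other pairs gave smaller differences in share. Rps27l, a p53 target, had 109 FPKM in Ercc1 DR, 94.5 FPKM in Ercc1 AL and 54.7 FPKM in wt AL, with a rescaled ratio of 0.29 in Ercc1 AL against wt AL. Rps27 had 83.7 FPKM in Ercc1 DR, 99.96 FPKM in Ercc1 AL and 34.8 FPKM in wt AL, so Rps27l made up 56.5% of the pair in Ercc1 DR, 48.6% in Ercc1 AL and 61.1% in wt AL. This share depends on the estimate taken. With a second row of the Rps27 span added to Rps27, described further on, it was 46.3% in Ercc1 DR, 48.5% in Ercc1 AL and 61.1% in wt AL, and on interval midpoints without that row it was 43.0% in Ercc1 DR, 35.4% in Ercc1 AL and 47.9% in wt AL. Rpl36al made up 61.2% of its pair with Rpl36a in Ercc1 DR, 61.8% in Ercc1 AL and 74.6% in wt AL. Rpl36a had 64.9 FPKM in Ercc1 DR, 38.7 FPKM in Ercc1 AL and 15.3 FPKM in wt AL, and Rpl36al had 102 FPKM in Ercc1 DR, 62.6 in Ercc1 AL and 44.9 in wt AL. Rpl7l1 stayed a minor copy beside Rpl7, with 5.93% of the pair in Ercc1 DR, 9.18% in Ercc1 AL and 9.05% in wt AL. Of the tissue-restricted paralogs, Rpl10l had at most 0.598 FPKM and Rpl39l at most 0.347 FPKM, both in Ercc1 AL.

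**Figure D4:**
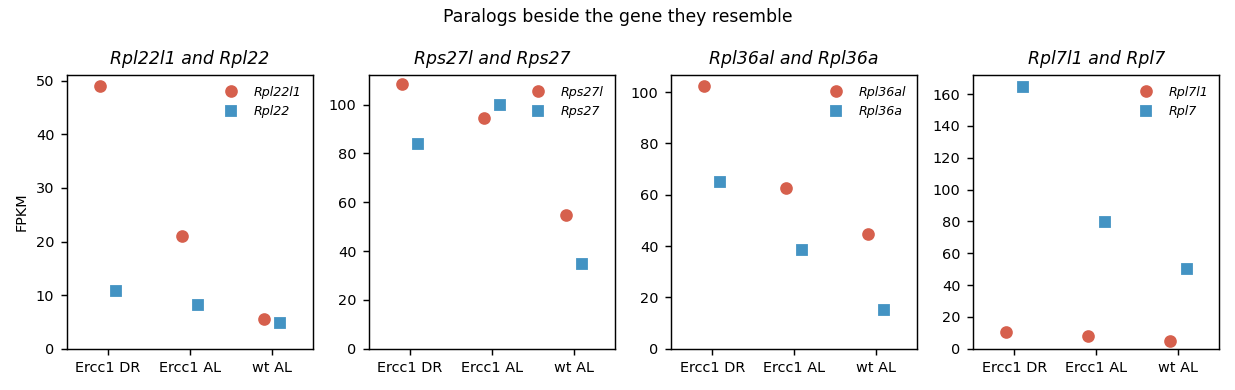
FPKM (vertical axes, each from 0) of 4 paralogs (circles) and the genes they resemble (squares) in the 3 libraries (horizontal axis), 1 library per point. Rpl22l1 and Rpl22 are close in wt AL (5.499 and 4.82 FPKM) and far apart in Ercc1 DR (48.9 and 10.8 FPKM), whereas Rpl7l1 is far below Rpl7 in each library.

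The stalk, the 5S particle and the kinase target followed the order of most members. Rplp0, the base of the P-stalk that recruits translation GTPases, had 103 FPKM in Ercc1 DR, 51.7 FPKM in Ercc1 AL and 36.4 FPKM in wt AL, with rescaled ratios of 0.01, 0.66 and 0.71 in Ercc1 AL against wt AL, Ercc1 DR against Ercc1 AL, and Ercc1 DR against wt AL. Its partners Rplp1 (157 FPKM in Ercc1 DR, 100.9 in Ercc1 AL and 52.6 in wt AL) and Rplp2 (52.6 FPKM in Ercc1 DR, 28.7 in Ercc1 AL and 13.1 in wt AL) had ratios of 0.44 and 0.61 in the first comparison. In that comparison Rplp0 thus stood with the typical gene and its partners above it.

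Rpl5 and Rpl11 bind 5S rRNA and, when free of ribosomes, inhibit MDM2, the ligase that degrades p53. Rpl5 had 60.1 FPKM in Ercc1 DR, 30.03 FPKM in Ercc1 AL and 14.4 FPKM in wt AL, with rescaled ratios of 0.54, 0.65 and 1.24. Rpl11 had 124 FPKM in Ercc1 DR, 72.2 FPKM in Ercc1 AL and 40.0 FPKM in wt AL, with ratios of 0.35, 0.44 and 0.83. Rps6, the protein phosphorylated by S6 kinases downstream of mTORC1, had 154 FPKM in Ercc1 DR, 68.7 FPKM in Ercc1 AL and 46.2 FPKM in wt AL, with ratios of 0.08, 0.82 and 0.94. All 3 were highest in Ercc1 DR, and Rps6 stood near the typical gene in Ercc1 AL against wt AL.

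Rps27a, which is made fused to ubiquitin, had 93.4 FPKM in Ercc1 DR, 61.7 FPKM in Ercc1 AL and 29.97 FPKM in wt AL. Rpsa, also known as the laminin receptor precursor, was among the lower small-subunit genes at 30.9 FPKM in Ercc1 DR, 19.9 FPKM in Ercc1 AL and 12.2 FPKM in wt AL. Both were lowest in wt AL and highest in Ercc1 DR. Fau, which encodes Rps30, and Gnb2l1, which encodes the scaffold Rack1 on the small subunit, lie outside the naming rule. Fau had 75.001 FPKM in Ercc1 DR, 46.1 in Ercc1 AL and 24.5 in wt AL, and Gnb2l1 had 94.3 FPKM in Ercc1 DR, 53.1 in Ercc1 AL and 32.2 in wt AL.

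Many ribosomal protein genes carry snoRNA genes in their introns, RNAs that guide the modification of ribosomal RNA. By GENCODE M21, 26 members contained 47 snoRNA genes, of which 46 lay off protein-coding exons and Snora7a in Rpl32 overlapped one. Members with and without a snoRNA gene had median rescaled ratios of 0.33 and 0.33 in Ercc1 AL against wt AL, 0.41 and 0.29 in Ercc1 DR against Ercc1 AL, and 0.78 and 0.79 in Ercc1 DR against wt AL. The pooled medians cover different differences by subunit. In Ercc1 AL against wt AL the large-subunit medians were 0.33 with a snoRNA gene and 0.23 without, and the small-subunit medians were 0.20 with (8 genes) and 0.51 without (22 genes). In Ercc1 DR against wt AL they were 0.86 with and 0.75 without for the large subunit, and 0.61 with and 0.81 without for the small subunit. All 4 genes past 2-fold in Ercc1 DR against Ercc1 AL (Rpl39, Rpl32, Rpl12 and Rps2) contain one. In Ercc1 DR against wt AL, 10 of the 26 members with a snoRNA gene (38.5%) were 2-fold higher and 1 was 2-fold lower. Of the 51 members without one, 9 (17.6%) were 2-fold higher and 1 was 2-fold lower. Among all measured genes, 6.02% were 2-fold higher and 16.4% were 2-fold lower.

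Most snoRNA rows inside members had lower ratios than their hosts. The row was below its host in 18 of 23 pairs of a row and a host (18 hosts) in Ercc1 AL against wt AL, in 18 of 23 in Ercc1 DR against Ercc1 AL and in 22 of 24 in Ercc1 DR against wt AL. The median rescaled ratio of the snoRNA rows was -0.16 (23 rows, 7 above 0), -0.74 (23 rows, 3 above 0) and -0.78 (24 rows, 2 above 0) in these comparisons. Their median level was 8287 FPKM in Ercc1 DR (24 rows), 6020 FPKM in Ercc1 AL (23 rows) and 6530 FPKM in wt AL (24 rows). Rows named as small RNAs (snoRNAs, microRNAs and the like) at 100 FPKM and above had medians of 0.14 (415 rows), -1.98 (415 rows) and -1.56 (420 rows). Low ratios in the 2 comparisons with Ercc1 DR were thus not particular to snoRNA rows inside members. Genes without an estimate were hosts as well. Rpl3 and Rpl23a contain snoRNA rows that had the status HIDATA, which stands in place of an estimate, and Rpl17 and Snord58b inside it both had it in Ercc1 AL only. Rpl17 had 426 FPKM in Ercc1 DR and 187 FPKM in wt AL, a rescaled ratio of 0.41.

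Some low values depend on how the tables split overlapping rows. Rpl30 (2.10 FPKM in Ercc1 DR, 2.24 in Ercc1 AL and 1.25 in wt AL) and Rpl26 (6.07 FPKM in Ercc1 DR, 2.06 in Ercc1 AL and 1.51 in wt AL) were the lowest members. Each shared its span with a second row, Gm12191 at 82.7 FPKM in Ercc1 DR, 36.9 in Ercc1 AL and 14.6 in wt AL for Rpl30 and Gm15772 at 108 FPKM in Ercc1 DR, 72.0 in Ercc1 AL and 37.6 in wt AL for Rpl26. Summed with that row, Rpl30 came to 84.8 FPKM in Ercc1 DR, 39.2 FPKM in Ercc1 AL and 15.8 FPKM in wt AL, in the usual order, with rescaled ratios of 0.78, 0.77 and 1.59. Rpl26 summed to 114 FPKM in Ercc1 DR, 74.0 in Ercc1 AL and 39.1 in wt AL with ratios of 0.42, 0.29 and 0.75. Rps15a, the next lowest at 8.12 FPKM in Ercc1 DR, 6.78 in Ercc1 AL and 4.91 in wt AL, shares its span with no other row and had the longest transcript of all members, 5179 bases.

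For Rps27 the second row changed the values. The tables give the rows Gm15772 and Gm9846 the status LOWDATA in each library, so sums with them are less certain than those with Gm12191. Gm9846, of the same span as Rps27, had 42.3 FPKM in Ercc1 DR, 0.172 FPKM in Ercc1 AL and 0.0106 FPKM in wt AL. The sum was 126 FPKM in Ercc1 DR, 100.1 FPKM in Ercc1 AL and 34.8 FPKM in wt AL. With it the rescaled ratio was 1.01 in Ercc1 AL against wt AL, as before, -0.00 in place of -0.58 in Ercc1 DR against Ercc1 AL, and 1.06 in place of 0.48 in Ercc1 DR against wt AL. Rpl34, which shares its span with Rpl34-ps1, kept its order, its sum being 97.4 FPKM in Ercc1 DR, 65.7 in Ercc1 AL and 36.1 in wt AL. Near-identical copies elsewhere are a wider limit, since 57 members have at least 1 of 272 pseudogenes named after them, up to 24 for Rpl31. How shared reads were placed is not given in the sources used here.

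Member medians were above those of other short genes in each comparison. Against other genes at 30 to 100 FPKM they were above in Ercc1 AL against wt AL and in Ercc1 DR against wt AL. In Ercc1 DR against Ercc1 AL the side depended on whether rows named as small RNAs were counted. Member transcripts had a median length of 775 bases (345 to 5179), against 2685 over all measured genes. Other genes with transcripts of up to 600 bases had median rescaled ratios of -0.08 (189 genes) in Ercc1 AL against wt AL, -0.13 (183 genes) in Ercc1 DR against Ercc1 AL and -0.26 (171 genes) in Ercc1 DR against wt AL. Between 30 and 100 FPKM on average, 48 members had medians of 0.38, 0.33 and 0.82 in these comparisons. Other genes of that level had 0.02 (550 genes), 0.20 (551 genes) and 0.21 (550 genes). Without rows named as small RNAs, these others had -0.005 (460 genes), 0.36 (460 genes) and 0.35 (461 genes). In Ercc1 DR against Ercc1 AL the members were thus slightly below them. At 100 FPKM and above, members had medians of 0.33 (12 genes), 0.30 (12 genes) and 0.71 (13 genes), against 0.06 (621 genes), -1.57 (621 genes) and -1.20 (632 genes) for the others. Most of those others were rows named as small RNAs (snoRNAs, microRNAs and the like), with medians of 0.14 (415 rows), -1.98 (415 rows) and -1.56 (420 rows). Without the small RNAs, the others at 100 FPKM and above had medians of -0.05 (206 genes), 0.13 (206 genes) and 0.06 (212 genes). Of these, 21.8% were 2-fold lower in Ercc1 DR against Ercc1 AL and 25.9% in Ercc1 DR against wt AL, so a 2-fold lower ratio, as for Rps2 and Rpl38 in the third comparison, was not rare among abundant genes outside the family.

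The level of short members is uncertain, however. Among members with 1 annotated start, the deposited FPKM lay above its own upper bound in 66 of 72 in Ercc1 DR, 65 of 71 in Ercc1 AL and 64 of 72 in wt AL. The median ratio of FPKM to the midpoint of the interval was 1.35 in Ercc1 DR, 1.35 in Ercc1 AL and 1.33 in wt AL, and the highest was 2.43 in Ercc1 DR, 2.44 in Ercc1 AL and 2.45 in wt AL. Across members this ratio was larger for shorter transcripts, with a Spearman's rho of -0.56 in each library (72, 71 and 72 genes of the same library, which are not independent). The excess was alike in the libraries, and with the midpoint in place of FPKM no median of the comparisons moved by more than the median counting uncertainty of a member's ratio (0.13, 0.10 and 0.12), and no count by over 1.5 times.

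Other genes of protein synthesis showed smaller or differently placed shifts, over lists chosen with earlier results of these data known. Genes with TOP mRNAs other than ribosomal protein genes, mostly translation factors (22 measured), had median rescaled ratios of 0.13 in Ercc1 AL against wt AL, 0.56 in Ercc1 DR against Ercc1 AL and 0.72 in Ercc1 DR against wt AL. In the second comparison all 22 were above 0, against 44.8% of genes, and 3 (13.6%) were 2-fold higher, against 3.12%. Npm1, a nucleolar chaperone of ribosome assembly, had 83.2 FPKM in Ercc1 DR, 21.4 FPKM in Ercc1 AL and 10.7 FPKM in wt AL. Ppia, a peptidyl-prolyl isomerase, had 311 FPKM in Ercc1 DR, 119 in Ercc1 AL and 103 in wt AL. Eif4b (24.2 FPKM in Ercc1 DR, 13.3 in Ercc1 AL and 4.95 in wt AL) and Eif3e (32.7 FPKM in Ercc1 DR, 15.6 in Ercc1 AL and 6.497 in wt AL), both initiation factors, had the highest ratios of the list in Ercc1 AL against wt AL, 0.83 and 0.70.

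Mitochondrial ribosomal proteins (76 genes), which act in the other ribosome of the cell, had medians of 0.08, 0.34 and 0.46 in the 3 comparisons, so they were near the cytosolic members in the diet comparison and lower in the other 2. Their levels were lower too, with medians of 8.55 FPKM in Ercc1 DR, 5.44 FPKM in Ercc1 AL and 3.33 FPKM in wt AL. Proteasome subunits had medians of 0.14 (38 genes), 0.21 (38 genes) and 0.38 (37 genes). Ribosome biogenesis factors had medians of 0.12 (44 genes), 0.26 (45 genes) and 0.49 (45 genes). Past 2-fold were 0 higher and 1 lower in the first comparison (against 2.35% and 4.9% of genes), 1 higher and 3 lower in the second (3.12% and 12%), and 6 higher and 2 lower in the third (6.02% and 16.4%). Of these, Rrp12 had 4.24 FPKM in Ercc1 DR, 8.65 FPKM in Ercc1 AL and 11.5 FPKM in wt AL, and Rrp9 was listed at 432 FPKM in Ercc1 DR, 1839 in Ercc1 AL and 3262 in wt AL, far above the list's median of 5.02 FPKM in Ercc1 DR, 3.09 in Ercc1 AL and 2.21 in wt AL.

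Genes of mTORC1 signalling to translation (20 measured) had medians of 0.13, 0.23 and 0.30, and genes of ribosome quality control (11 measured) 0.13, 0.11 and 0.26. Sesn1, a sestrin that restrains mTORC1, had 7.32 FPKM in Ercc1 DR, 1.65 FPKM in Ercc1 AL and 0.803 FPKM in wt AL, whereas Sesn3 had 5.46 FPKM in Ercc1 DR, 12.4 in Ercc1 AL and 6.59 in wt AL. Ddit4, another inhibitor of mTORC1, had 3.84 FPKM in Ercc1 DR, 2.17 in Ercc1 AL and 0.581 in wt AL, and Pdcd4, an inhibitor of initiation, had 10.7 FPKM in Ercc1 DR, 7.51 in Ercc1 AL and 2.56 in wt AL. In the quality control list, Abce1, which recycles ribosomes, had 19.2 FPKM in Ercc1 DR, 10.9 in Ercc1 AL and 5.24 in wt AL, Ltn1, a ligase for stalled chains, had 3.88 FPKM in Ercc1 DR, 2.80 in Ercc1 AL and 1.35 in wt AL, and Hbs1l, which helps to split stalled ribosomes, had 41.7 FPKM in Ercc1 DR, 59.3 in Ercc1 AL and 44.0 in wt AL. As deposited, Sesn1, Ddit4, Pdcd4, Abce1 and Ltn1 thus had the order of most ribosomal protein genes, and Sesn3 and Hbs1l were highest in Ercc1 AL. That order was also the one of 59.3% of 9053 genes, and the genes named here were those with the largest ratios of their lists. Phosphorylation, by which mTORC1 acts, was not measured.

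**Figure D5:**
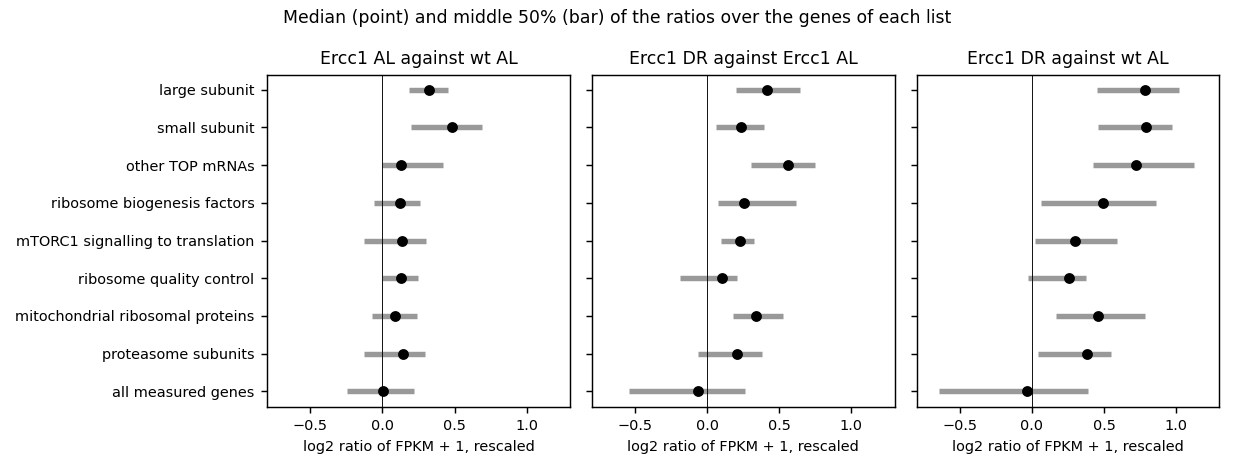
Median (points) and middle 50% (bars) of the rescaled log2 ratio of FPKM + 1 (horizontal axis) over the genes of each list, 1 panel per comparison. The 2 subunits have the highest medians in Ercc1 AL against wt AL (0.32 and 0.48), other TOP mRNAs have the highest in Ercc1 DR against Ercc1 AL (0.56), and all measured genes lie near 0.

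Within the members, a pyrimidine run anywhere in the window around the annotated start went with small differences in ratio. Those with a run of at least 8 (32 genes) and those without (28 genes) had medians of 0.33 and 0.30 in Ercc1 AL against wt AL, 0.30 and 0.32 in Ercc1 DR against Ercc1 AL, and 0.79 and 0.71 in Ercc1 DR against wt AL. Rpl38, with 10 pyrimidines across its start, was the lowest member in the third comparison, and Rpl22l1, with 10 just after its start, the highest. In other members the run lay away from the start. Counted from the annotated start, it began at position -21 in Rpl39 and at position 18 in Rpl10a. The split therefore does not sort members by a TOP tract, which lies directly at the start. Whether members with such a tract differ from the others was not tested.

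Several measures of the whole libraries moved with these results, and their part in them was not tested. In bulk tissue, fewer cells of a type and less RNA per cell cannot be told apart. Hepatocyte markers (11 of 12 with estimates) summed to 12705 FPKM in Ercc1 DR, 6413 FPKM in Ercc1 AL and 4977 FPKM in wt AL, with median rescaled ratios of 0.05, 0.54 and 0.63. Endothelial markers (10 of 10) summed to 16.7 FPKM in Ercc1 DR, 27.6 in Ercc1 AL and 33.6 in wt AL, with medians of -0.33, -0.54 and -0.83, the opposite order to the hepatocyte sum. Macrophage markers (10 of 11) summed to 21.6 FPKM in Ercc1 DR, 34.4 in Ercc1 AL and 25.9 in wt AL. Their median rescaled ratios were -0.03 (9 genes, 4 above 0), -0.72 (9 genes, 0 above 0) and -0.83 (8 genes, 0 above 0). T, B and NK cell markers (11 of 12) summed to 8.29 FPKM in Ercc1 DR, 18.4 in Ercc1 AL and 28.4 in wt AL, with Cd79b the only one past 1 FPKM. Without Cd79b this list summed to 2.73 FPKM in Ercc1 DR, 5.09 in Ercc1 AL and 3.49 in wt AL. Neutrophil markers (7 of 8) summed to 3.64 FPKM in Ercc1 DR, 6.90 in Ercc1 AL and 8.79 in wt AL, and without Mpo to 2.40 FPKM in Ercc1 DR, 3.41 in Ercc1 AL and 2.39 in wt AL. Erythroid markers (7 of 9) summed to 156 FPKM in Ercc1 DR, 94.6 in Ercc1 AL and 155 in wt AL. The highest of them alone had 151 FPKM in Ercc1 DR, 72.3 in Ercc1 AL and 145 in wt AL. The median rescaled ratios of the erythroid list were -0.29 (5 genes), -1.03 (4 genes) and -0.95 (5 genes), so its sum does not stand for the list. Stellate cell markers (8 of 8) summed to 43.3 FPKM in Ercc1 DR, 39.0 in Ercc1 AL and 22.4 in wt AL. Their medians were 0.20 (6 genes), -0.25 (5 genes, 0 above 0) and -0.06 (6 genes). Cholangiocyte markers (6 of 6) summed to 5.02 FPKM in Ercc1 DR, 5.16 in Ercc1 AL and 8.04 in wt AL. No marker with an estimate was at 0. Ercc1 itself was listed at 0.475 FPKM in Ercc1 DR, 0.573 FPKM in Ercc1 AL and 0.461 FPKM in wt AL, with overlapping intervals, so its level does not separate the genotypes here. The tables hold no counts, and the depth of the libraries is unknown. The deposited intervals reached 4.19% of the midpoint to either side for the median member in Ercc1 DR, 5.16% in Ercc1 AL and 7.50% in wt AL.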

How the data were processed

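Liver RNA of 3 groups was measured, 1 library each, and libraries were assigned to groups by their titles. The deposited values are FPKM, each with its interval and a status, per the file headers. Reads were placed on mm10, per the submitters' processing notes. The program, the annotation and the use of strand were not given in the sources used here. Each table holds 23850 rows. Rows with status HIDATA or FAIL (56 in Ercc1 DR, 96 in Ercc1 AL, 62 in wt AL) were treated as missing, and where a symbol had several rows, the one highest on average was taken.

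Libraries were rescaled so that 9109 rows with at least 1 FPKM in each library had a median log2 ratio of 0. Ratios are log2 of FPKM + 1, over genes with at least 1 FPKM in either library, with 2-fold as threshold. The computation was checked on simulated data. With 1 library per group, members' counts and medians are given beside those of all measured rows, repeated symbols included, in place of a test. Transcript lengths (the median over a gene's protein-coding transcripts that have a RefSeq mRNA), snoRNA genes and pseudogenes came from GENCODE M21, on the same assembly. Python 3.11.15, numpy 2.4.6, pandas 2.3.3 and scipy 1.17.1 were used.

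Named were the 4 highest and 4 lowest members per comparison, the 5 highest and 3 lowest in level, paralogs with their copies, missing members, Rplp0, Rplp1, Rplp2, Rpsa, Rps6, Rpl5, Rpl11, Rps27a, and the 2 largest ratios of each list in the first 2 comparisons. Other genes named, such as Rps21, Rps4x, Rps7, Rps12, Rps25, Rps28, Rpl34, Rpl7a and the rows that overlap members, were chosen after their values were seen. Some genes that the rule selects are not reported here. The members and lists were chosen with earlier results of these data known. Alternatives were another scaling or none, another pseudocount, a stricter minimum, interval midpoints, summed repeats, only members with all estimates, and no paralogs. Rows of the same span summed and members with a snoRNA gene left out were added after seeing the data.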

Additional observations from a re-analysis of the deposited data

How the results depend on the processing

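The main dependence was on scaling. On the values as deposited the median log2 ratios were 0.81, 0.65 and 1.54 in Ercc1 AL against wt AL, Ercc1 DR against Ercc1 AL and Ercc1 DR against wt AL. In that order 22, 12 and 64 members were then at least 2-fold higher, and in Ercc1 DR against wt AL 0 were 2-fold lower. With the other alternatives the medians stayed between 0.32 and 0.38, 0.27 and 0.34, and 0.74 and 0.79. With upper quartile scaling, 2 members were 2-fold lower in Ercc1 DR against Ercc1 AL. Without paralogs, 1 was 2-fold higher in Ercc1 AL against wt AL. Leaving out members with a snoRNA gene, an alternative chosen after seeing the data, gave 0 higher and 0 lower in Ercc1 DR against Ercc1 AL, since it leaves out all 4 such genes, and 9 higher and 1 lower in Ercc1 DR against wt AL. A ratio counted as moved past its own counting uncertainty from the deposited intervals, a median or a difference between subunits past the median of that uncertainty over members (0.13, 0.10 and 0.12 in the 3 comparisons), and a count past 1.5 times. Of 120 medians, differences and counts, 107 stayed within these limits, and of 982 values of single genes under an alternative 876 did and 106 moved, and no value past 2-fold changed sign. No paired analysis was possible because each group has 1 library. No library could be left out, and differences between animals are unknown.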
